A study of Mus musculus with 4 samples.

Results

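The colony-stimulating factor receptors carry the signals under which neutrophils, monocytes, macrophages and dendritic cells are produced and kept alive. The set is defined by gene symbol, with no threshold on a measured value, and all 6 symbols were present among the 31053 genes of the deposited table. Csf3r encodes the receptor for granulocyte colony-stimulating factor (G-CSF), and Csf1r the receptor for macrophage colony-stimulating factor (M-CSF). Csf2ra encodes the subunit that binds granulocyte-macrophage colony-stimulating factor (GM-CSF), Csf2rb the β subunit that GM-CSF, IL-3 and IL-5 share, and Csf2rb2 a second β subunit of the mouse that serves IL-3. Flt3 encodes the receptor for Flt3 ligand.

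G-CSF and GM-CSF receptors have no kinase domain of their own and pass their signal through JAK kinases and STAT transcription factors. Csf1r and Flt3 are receptor tyrosine kinases, relatives of Kit. Csf3r is a known marker of neutrophils, Csf1r of monocytes and macrophages, and Flt3 of dendritic cells and their precursors. SOCS proteins and Cish are made in response to STAT activity and shut the receptors down.

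Live CD45+ cells, negative for propidium iodide, were sorted from excisional skin wounds of 3 mm made by biopsy punch in male mice of 8 weeks, whose strain the labels give as C57BL6/J for all 4 libraries, and were sequenced with the 10x 3' V3 kit. There was 1 library each of Angptl4+/+ wounds taken 1 day and 5 days after wounding (dpw, days post-wounding) and of Angptl4-/- wounds of the same ages. By the study's methods, all 4 libraries followed the same protocol of wounding and sorting, which does not show that they were processed together. By the same methods, wild-type mice came from a commercial supplier and Angptl4-/- mice from a mutant repository, so the genotypes also differ in colony. The sources do not give how many mice were behind a library. A library and its condition therefore cannot be told apart, no test between conditions was made, and every interval is a 95% interval that covers counting error only.

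Angptl4, the deleted gene, had 47 and 78 UMIs in the Angptl4+/+ libraries at 1 and 5 dpw and 0 in both Angptl4-/- libraries. A UMI (unique molecular identifier) stands for 1 captured RNA molecule. The libraries held 26981596 to 32962595 UMIs, with medians of 3736 to 4976 per cell over the 19827 of 20069 barcodes that were kept, and any pair of libraries shared 4 to 15 barcodes. Ptprc, which encodes CD45, was seen in 89.8 to 93.8% of the cells of a library, while 4 keratinocyte, 4 fibroblast and 4 endothelial genes summed to 0.474 to 2.78, 1.58 to 5.99 and 23.3 to 27.2 CPM, which is UMIs of a gene per 1000000 UMIs. The cells fell into 12 clusters and 6 classes without use of the receptors, their ligands or their signalling genes. Neutrophil-like cells made up 54.5 to 77.2% of a library, macrophage-like cells 13.7 to 31.2%, monocyte-like cells 2.63 to 2.86%, dendritic cell-like cells 1.85 to 6.37% and NK cell/T cell-like cells 0.673 to 4.62%. The median UMIs per cell of a library ran from 3218 to 4682 in neutrophil-like, from 5833 to 11536 in macrophage-like and from 6274 to 7147 in NK cell/T cell-like cells.

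Csf2rb and Csf2rb2 are neighbouring near-copies, so their counts were checked for mixing before any level was read. In mm10, Csf2rb lies at chr15:78325752-78353847, plus strand, 14 exons, and Csf2rb2 at chr15:78282507-78305721, minus strand, 14 exons, 20030 bases away. Their coding sequences are 2688 and 2634 bases long. Of the coding bases of Csf2rb, 2682 aligned with the Csf2rb2 transcript and 95.3% of these were identical. Over the last 500 bases of the Csf2rb transcript, near which a 3' kit reads, 82.0% of the aligned bases were identical. Windows of 60 bases that occur in both transcripts made up 20.6% of those in the coding sequence and 0 of 441 in the last 500 bases. The stretch below is exon 14 of 14 up to the stop codon of Csf2rb2, shown because it holds the end of the shared coding sequence, and the capitals mark the 7 of 100 bases at which the genes differ.
Csf2rb chr15:78349032-78349131, plus strand: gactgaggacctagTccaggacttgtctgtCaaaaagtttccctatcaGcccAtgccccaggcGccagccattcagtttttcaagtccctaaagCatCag
Csf2rb2 chr15:78284317-78284416, minus strand: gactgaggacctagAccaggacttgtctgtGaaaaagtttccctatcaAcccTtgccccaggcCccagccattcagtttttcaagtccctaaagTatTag
Counted from 1 at the first base of the Csf2rb start codon, with the base of Csf2rb first, the differences are T2552A, C2568G, G2586A, A2590T, G2601C, C2632T and C2635T. The last of these stands in the codon CAG of Csf2rb and the stop codon TAG of Csf2rb2. Reads that match both genes equally well are not counted by Cell Ranger, and reads near the transcript ends can tell them apart.

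The promoters of Csf3r and Flt3 are shown because these genes kept most closely to 1 class. The sequences are the 250 bases before the RefSeq start (GRCm38.p6), 5′ to 3′ on the strand of the gene, with the match to GAGGAA in capitals.
Csf3r chr4:126024409-126024658, plus strand: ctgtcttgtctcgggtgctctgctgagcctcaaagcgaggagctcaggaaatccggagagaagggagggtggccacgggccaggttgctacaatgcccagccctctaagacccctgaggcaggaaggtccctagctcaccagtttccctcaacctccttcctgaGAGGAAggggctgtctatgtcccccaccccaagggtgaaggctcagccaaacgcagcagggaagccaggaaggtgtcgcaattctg
Flt3 chr5:147400490-147400739, minus strand: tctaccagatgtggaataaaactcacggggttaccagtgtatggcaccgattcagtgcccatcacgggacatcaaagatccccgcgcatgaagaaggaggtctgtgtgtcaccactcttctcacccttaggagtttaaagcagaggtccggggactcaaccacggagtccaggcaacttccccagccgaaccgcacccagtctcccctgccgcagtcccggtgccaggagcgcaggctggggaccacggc
The windows searched ran from 250 bases before to 50 bases after the start, and both strands were read for GAGGAA, the core bound by the myeloid factor PU.1, TTGCNNAA, the core of C/EBP sites, and TTCNNNGAA, the core of STAT sites. Csf3r held 1 GAGGAA, beginning 86 bases before the RefSeq start, and Flt3 held none of the motifs. The mm10 annotation begins Csf3r upstream of that start, so by that annotation the match and the end of the printed window lie within the gene. Csf2ra held 2 GAGGAA, and Csf2rb2 held 2 GAGGAA and 1 TTCNNNGAA. Among 32817 promoters of the same length, 28.3% held GAGGAA, 10.8% TTGCNNAA and 8.29% TTCNNNGAA. A match is a description of these letters only.

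In mm10 the other members lie on separate chromosomes. Csf3r is at chr4:126024550-126044440, plus strand, 15 exons, Flt3 at chr5:147330741-147400489, minus strand, 24 exons, and Csf2ra at chr19:61223957-61228429, minus strand, 11 exons. Csf1r is at chr18:61100598-61132149, plus strand, 22 exons, and overlaps the protein-coding gene Hmgxb3 on the other strand. Flt3 overlaps Gm26597 on the other strand.

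Each receptor had its own pattern over the classes of wound leukocyte. Levels are UMIs of a gene summed over the cells of a class and library, as CPM of all UMIs of that class. A 3' kit counts 1 end of each transcript and the values are not divided by length, so a level is compared across classes and libraries and not with that of another gene. Of all Csf3r UMIs, 87.6 to 94.2% came from neutrophil-like cells, of Csf1r UMIs 62.3 to 82.2% from macrophage-like cells and of Flt3 UMIs 83.9 to 93.8% from dendritic cell-like cells, as ranges over the 4 libraries. Csf2ra, Csf2rb and Csf2rb2 were spread over the myeloid classes. Neutrophil-like cells held 55.6 to 73.9% of Csf2rb UMIs, 30.6 to 68.2% of Csf2ra UMIs and 36.7 to 62.2% of Csf2rb2 UMIs.

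**Figure D1:**
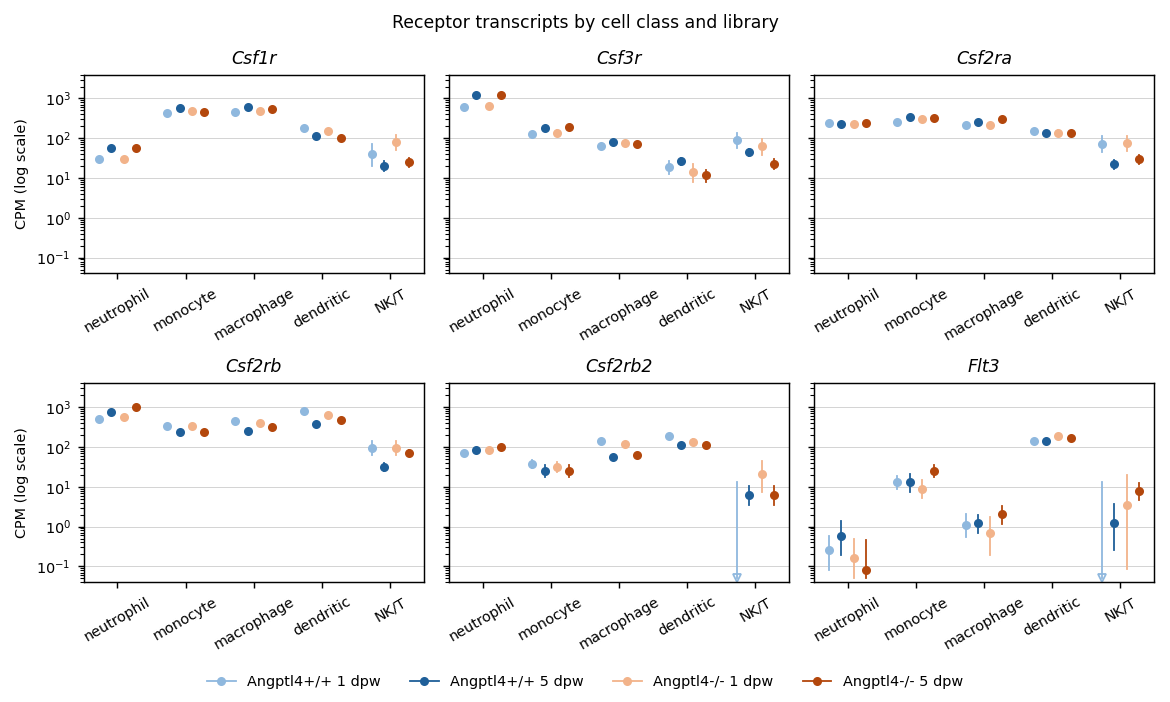
Levels of the 6 receptor genes (CPM, log axis) in each class of cell but B cell-like cells, with 1 point per library and bars for the exact Poisson 95% interval. Open triangles near the foot of the axis stand for 0 UMIs. Csf3r is highest in neutrophil-like cells (608 to 1228 CPM), Csf1r in monocyte-like and macrophage-like cells (470.2 to 597 CPM in the latter), and Flt3 in dendritic cell-like cells (141 to 187 CPM).

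Csf3r, the receptor under which neutrophils are made and released, was high in neutrophil-like cells of every library. Its level there was 608 (597 to 619) CPM at 1 dpw and 1228 (1204 to 1251) CPM at 5 dpw in Angptl4+/+ wounds, and 634 (622 to 645) and 1202 (1183 to 1222) CPM in Angptl4-/- wounds. Both 5 dpw libraries were thus well above the 1 dpw libraries, and the genotypes lay close together at each time.

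Monocyte-like cells had 126 and 179 CPM in Angptl4+/+ wounds at 1 and 5 dpw, with 139 and 193 CPM in Angptl4-/- wounds, macrophage-like cells 64.5 to 81.7 CPM, NK cell/T cell-like cells 22.9 to 89.9 CPM and dendritic cell-like cells 11.6 to 26.3 CPM. The order of neutrophil-like, monocyte-like and macrophage-like cells held in all 4 libraries, with a log2 ratio of macrophage-like to neutrophil-like cells of -4.08 to -3.06. A UMI of Csf3r was seen in 79.5% of neutrophil-like cells of all libraries. After each cell was thinned to 1000 UMIs, the share was 48.5%, against 12.9% of monocyte-like, 6.35% of macrophage-like, 2.35% of dendritic cell-like and 2.51% of NK cell/T cell-like cells.

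Transcripts of neutrophil genes were present in every other class. In monocyte-like cells, Csf3r stood at 14.5 to 22.0% of its neutrophil-like level, while the medians of 7 neutrophil markers (S100a8, S100a9, Retnlg, Cxcr2, Hdc, G0s2 and Il1r2) stood at 3.86 to 11.2% of theirs and summed to 7238 to 12798 CPM. For macrophage-like cells the figures were 5.92 to 12.0% for Csf3r and 1.80 to 6.04% for the marker medians, with sums of 1730.1 to 11181 CPM and no marker at 0. In NK cell/T cell-like cells they were 1.91 to 14.8% and 2.62 to 12.1%, with Csf3r above the marker median in 3 of 4 libraries. The part of RNA from neutrophils in the Csf3r levels of the other classes was not tested.

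Csf3r was uneven among the 6 neutrophil-like clusters, and their order was nearly the same in every library. The cluster led by Pglyrp1 and Prok2, which also carried the granule genes Ngp and Mmp8, had the highest level, with 920.3 and 2012 CPM in Angptl4+/+ wounds at 1 and 5 dpw, with 886 and 1930.1 CPM in Angptl4-/- wounds. The cluster led by Csf3 and Il1a, which encode G-CSF itself and the cytokine IL-1α, had the lowest, with 282 and 496 CPM in Angptl4+/+ wounds at 1 and 5 dpw, with 338 and 504 CPM in Angptl4-/- wounds. Between them, the cluster led by Acot1 and Egr3 had 656, 1480.0, 858 and 1417 CPM, in the same order of libraries. The interferon-gene cluster led by Ifit1 and Ifit3b had 626, 1581, 689 and 1398 CPM, the cluster led by Gm5483 and Dgat1 513, 1011, 499.8 and 954 CPM, and the cluster led by Csf1 338, 526, 394 and 654 CPM. The Acot1 and Ifit1 clusters changed places between libraries, and the Csf1 and Csf3 clusters differed by less at 1 dpw than either differed between the days.

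The other receptors took other orders over these clusters. Csf2rb2 was highest in the cluster led by Csf1, with 86.2, 148, 101 and 162 CPM, against 69.1, 50.8, 71.0 and 59.4 CPM in the Pglyrp1 cluster. Csf2rb had 401, 688, 421 and 839.6 CPM in the Csf1 cluster, 629.9, 875, 713 and 1169.5 CPM in the Pglyrp1 cluster and 301, 601, 367 and 889 CPM in the Csf3 cluster. The Gm5483 cluster had 508, 1044, 612 and 1236 CPM, so that Csf2rb was highest in the Pglyrp1 cluster in both 1 dpw libraries and in the Gm5483 cluster in both 5 dpw libraries. Csf2ra ranged over the 4 libraries from 256 to 294 CPM in the Pglyrp1 cluster, from 252 to 299 CPM in the Gm5483 cluster, from 151 to 176 CPM in the Csf1 cluster and from 137 to 200.3 CPM in the Csf3 cluster. Csf1r was low in all 6, at 14.5 to 122 CPM over clusters and libraries.

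**Figure D2:**
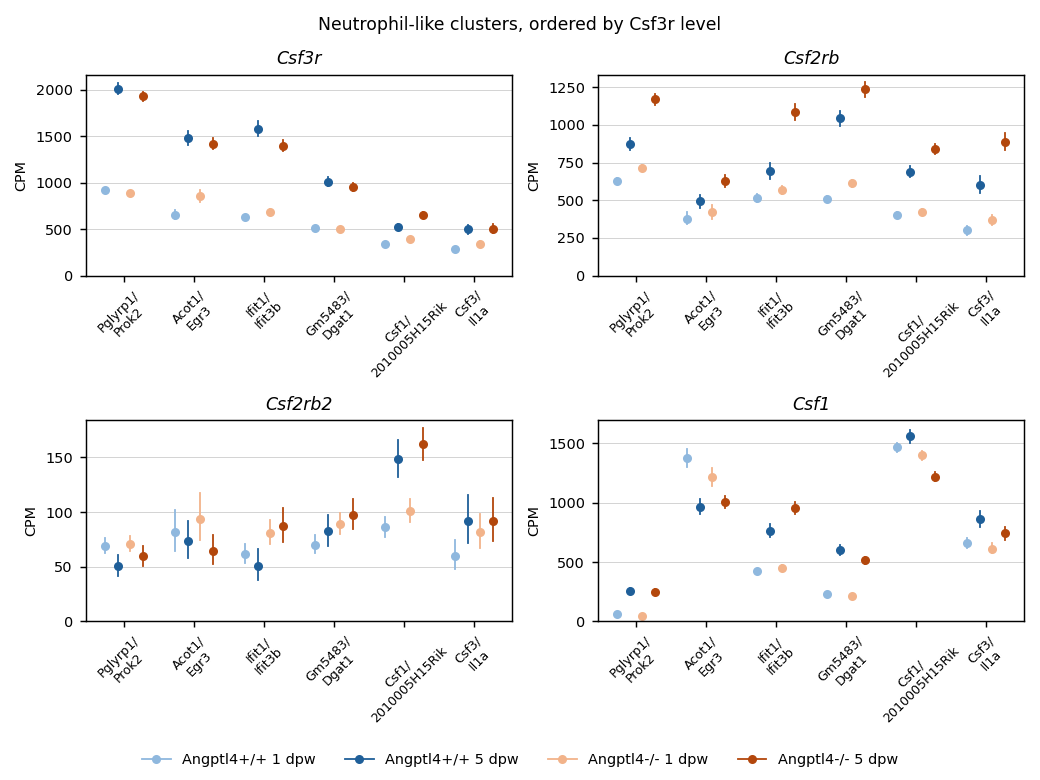
Levels (CPM) of Csf3r, Csf2rb, Csf2rb2 and the ligand gene Csf1 in the 6 neutrophil-like clusters, each named by its leading genes, with 1 point per library and exact Poisson 95% intervals. Csf3r spans 282 to 920.3 CPM over the clusters at 1 dpw and 496 to 2012 CPM at 5 dpw, with the Pglyrp1 cluster at the top and the Csf3 cluster at the bottom in each library.

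Csf1r, on which most macrophages depend for survival, was high in macrophage-like and monocyte-like cells alike. Macrophage-like cells had 470.2 (456 to 485) CPM at 1 dpw and 597 (584 to 610.2) CPM at 5 dpw in Angptl4+/+ wounds, and 472 (454 to 489.8) and 533 (517 to 549) CPM in Angptl4-/- wounds. Monocyte-like cells had 435 (408 to 463) CPM at 1 dpw and 561 (519 to 604) CPM at 5 dpw in Angptl4+/+ wounds, and 494 (462 to 527) and 470.0 (434 to 508) CPM in Angptl4-/- wounds. The log2 ratio of macrophage-like to monocyte-like cells ran from -0.07 to 0.18 over the libraries, so these classes did not keep an order.

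Dendritic cell-like cells had 177 and 112 CPM in Angptl4+/+ wounds at 1 and 5 dpw, with 151 and 101 CPM in Angptl4-/- wounds, and neutrophil-like cells 29.9, 55.6, 30.5 and 56.3 CPM. Macrophage-like cells stood above neutrophil-like cells by a log2 ratio of 3.24 to 3.98. After thinning, Csf1r was seen in 39.0% of monocyte-like, 37.4% of macrophage-like, 8.70% of dendritic cell-like, 4.0% of neutrophil-like and 1.16% of NK cell/T cell-like cells. Unthinned, the shares were 81.7% of macrophage-like and 13.5% of neutrophil-like cells. In neutrophil-like cells Csf1r stood at 6.35 to 10.6% of its macrophage-like level, where the medians of 9 macrophage markers stood at 0.134 to 0.508% of theirs. The highest of these markers, Adgre1, stood at 9.20 to 11.4%, above Csf1r in every library but that of Angptl4+/+ wounds at 5 dpw.

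The macrophage-like cells formed 2 clusters, 1 led by Arg1 and Mmp12 and 1 led by Ccl12 and Ms4a7 with the complement genes C1qa, C1qb and C1qc. Csf1r was at 469.5, 548, 471 and 464 CPM in the first and 471, 664, 473 and 601 CPM in the second, for Angptl4+/+ wounds at 1 and 5 dpw and then Angptl4-/- wounds. The clusters were at nearly the same level at 1 dpw, and at 5 dpw the Ccl12 cluster had more, the log2 ratio of the Arg1 to the Ccl12 cluster being -0.28 in Angptl4+/+ and -0.37 in Angptl4-/- wounds. Csf2rb2 went the other way, with 169, 63.0, 161 and 77.9 CPM in the Arg1 cluster and 99.5, 49.3, 75.8 and 48.1 CPM in the Ccl12 cluster. Csf2rb was also higher in the Arg1 cluster in all 4 libraries, by a log2 ratio of 0.34 to 0.47.

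Csf2ra, which binds GM-CSF, had like CPM in neutrophil-like, monocyte-like and macrophage-like cells, but not like UMIs per cell. Monocyte-like cells had 257 and 351 CPM in Angptl4+/+ wounds at 1 and 5 dpw, with 298 and 316 CPM in Angptl4-/- wounds. Macrophage-like cells had 213, 256, 215 and 297 CPM and neutrophil-like cells 237, 223, 231 and 240.4 CPM in the same order of libraries. In CPM monocyte-like cells were highest in each library. The log2 ratio of CPM of macrophage-like to neutrophil-like cells ran from -0.15 to 0.30, with the sign changing between the days. In UMIs per cell, neutrophil-like cells had 0.713 to 1.20, macrophage-like cells 1.48 to 3.53 and monocyte-like cells 3.20 to 4.25. Macrophage-like cells were then above neutrophil-like cells in each library. Dendritic cell-like cells had 136 to 153 CPM and NK cell/T cell-like cells 22.3 to 76.2 CPM. The thinned shares were 24.2% of monocyte-like, 19.6% of neutrophil-like, 18.7% of macrophage-like, 11.9% of dendritic cell-like and 1.74% of NK cell/T cell-like cells.

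Csf2rb, the shared β subunit without which GM-CSF cannot signal, had 503 (493 to 513) CPM at 1 dpw and 769.8 (751 to 789) CPM at 5 dpw in Angptl4+/+ wounds, and 571 (560 to 582) and 999.7 (982 to 1018) CPM in Angptl4-/- wounds in neutrophil-like cells. In dendritic cell-like cells the levels were 785 (742 to 829) CPM at 1 dpw and 377 (359 to 396) CPM at 5 dpw in Angptl4+/+ wounds, and 630.4 (587 to 677) and 483 (458 to 508) CPM in Angptl4-/- wounds. In CPM these classes changed places, with dendritic cell-like cells higher in both 1 dpw libraries and neutrophil-like cells higher in both 5 dpw libraries. In UMIs per cell, dendritic cell-like cells were higher in every library, with 4.96 to 11.5 against 2.47 to 3.50. Their mean UMIs of all genes per cell were 13159 to 14619, against 3203 to 5062 in neutrophil-like cells. Macrophage-like cells had 446, 247, 396 and 314 CPM and monocyte-like cells 333, 243, 336 and 235 CPM. The thinned shares were 43.7% of neutrophil-like, 35.9% of dendritic cell-like, 24.7% of macrophage-like, 22.7% of monocyte-like and 4.05% of NK cell/T cell-like cells.

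IL-3 acts on mast cells and basophils, and 14 cells that carried their markers were set apart from the classes, 10 in Angptl4+/+ and 4 in Angptl4-/- wounds, all at 5 dpw. Csf2rb was at 2307 (1971 to 2683) CPM in the 10 cells and 1919 (1438 to 2510.4) CPM in the 4 cells, and Csf2rb2 at 453 (312 to 636) and 435 (225 to 759) CPM. These were the highest levels of both genes in any class of those libraries, over 168 and 53 UMIs of Csf2rb and 33 and 12 UMIs of Csf2rb2.

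Csf2rb2, the IL-3 subunit, was highest among the larger classes in dendritic cell-like cells, with 192 and 110.0 CPM in Angptl4+/+ wounds at 1 and 5 dpw, with 137 and 115 CPM in Angptl4-/- wounds. Macrophage-like cells had 144, 57.2, 122 and 62.9 CPM, neutrophil-like cells 71.8, 85.9, 84.3 and 97.9 CPM and monocyte-like cells 37.8, 25.6, 31.7 and 25.5 CPM. In CPM macrophage-like cells were above neutrophil-like cells in both 1 dpw libraries and below them in both 5 dpw libraries. In UMIs per cell they were above neutrophil-like cells in all 4, with 0.482 to 1.12 against 0.275 to 0.417. Macrophage-like cells were above monocyte-like cells in all 4, by a log2 ratio of CPM of 1.16 to 1.95.

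In single cells thinned to 1000 UMIs and taken over all libraries, Csf2rb2 was seen more often in cells with a Csf2rb UMI among macrophage-like and dendritic cell-like cells. Among macrophage-like cells with a Csf2rb UMI, 14.2% (12.1 to 16.6) also had a Csf2rb2 UMI, against 6.97% (6.09 to 7.94) of those without. By library, the shares were 16.5 and 10.8% at 1 dpw and 8.47 and 5.16% at 5 dpw in Angptl4+/+ wounds. In Angptl4-/- wounds they were 18.7 and 8.42% at 1 dpw and 14.7 and 3.63% at 5 dpw. The direction was thus the same in all 4 libraries, with intervals apart in both Angptl4-/- libraries and overlapping in both Angptl4+/+ libraries. For dendritic cell-like cells the shares were 20% (15.3 to 25.4) and 9.91% (7.35 to 13.0). The direction was the same in each library. Their intervals were apart only in Angptl4+/+ wounds at 5 dpw, with 19.8% (12.2 to 29.4) and 7.14% (4.14 to 11.3). For neutrophil-like cells the shares were 8.94% (8.22 to 9.69) and 6.86% (6.30 to 7.45). In neutrophil-like cells the gap lay mostly in the Angptl4-/- library at 5 dpw, with 10.6% (9.28 to 12.1) and 6.06% (4.93 to 7.37), and the intervals overlapped in the other 3 libraries. Monocyte-like cells had 2.44% (0.506 to 6.96) and 1.91% (0.830 to 3.74). Csf2rb was seen in 48.2% (47.0 to 49.4) of neutrophil-like cells with a Csf3r UMI and 39.6% (38.4 to 40.7) of those without. By library the gap was smaller. In Angptl4+/+ wounds Csf2rb was seen in 39.9 and 35.5% at 1 dpw, with intervals that just overlapped, and in 50.5 and 42.5% at 5 dpw. In Angptl4-/- wounds it was seen in 41.7 and 35.7% at 1 dpw and in 57.2 and 50.6% at 5 dpw. Csf2rb was seen in 47.2% (45.3 to 49.1) of neutrophil-like cells with a Csf2ra UMI and 42.9% (42 to 43.8) of those without. At 1 dpw the shares were 41.6% and 36.1% in Angptl4+/+ wounds and 45.1% and 36.5% in Angptl4-/- wounds, with intervals apart. At 5 dpw they were 49.5% and 46.8% in Angptl4+/+ wounds and 54.0% and 54.7% in Angptl4-/- wounds, with overlapping intervals. For macrophage-like cells the shares over all libraries were 25.5% (22.4 to 28.8) and 24.6% (23.1 to 26.1). Among macrophage-like cells, Csf2rb was seen in 24.7% (22.5 to 27.0) of those with a Csf1r UMI and 24.8% (23.1 to 26.5) of those without. The cells come from 4 libraries of different conditions, and the shares describe them without a test.

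Flt3, which drives the output of dendritic cells from their precursors, was close to absent outside dendritic cell-like cells. These had 141 (123 to 161) CPM at 1 dpw and 145 (133 to 157) CPM at 5 dpw in Angptl4+/+ wounds, and 187 (163 to 213) and 165 (151 to 180.4) CPM in Angptl4-/- wounds. Monocyte-like cells had 12.9, 13.2, 8.91 and 24.8 CPM, macrophage-like cells 0.691 to 2.08 CPM and neutrophil-like cells 0.0815 to 0.579 CPM. The log2 ratio of dendritic cell-like to macrophage-like cells was 6.32 to 8.08. Thinned shares were 14.8% of dendritic cell-like, 0.739% of monocyte-like, 0.0999% of macrophage-like and 0.0370% of neutrophil-like cells, and the unthinned share of dendritic cell-like cells was 75%.

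The 724 dendritic cell-like cells were clustered again and named from markers into Cd209a, Xcr1, mature (Ccr7 and Fscn1) and plasmacytoid types. In the order Angptl4+/+ at 1 and 5 dpw and Angptl4-/- at 1 and 5 dpw, there were 29, 106, 27 and 68 Cd209a, 51, 152, 42 and 78 mature, 3, 14, 5 and 27 Xcr1 and 5, 14, 2 and 12 plasmacytoid cells. A further 23, 29, 13 and 24 cells were led by Clec4e and Clec4n with Fn1, Spp1, S100a8 and S100a9. They stayed unnamed because genes of other classes led them, S100a8 and S100a9 being neutrophil markers and Fn1 a macrophage marker. The part of RNA from such classes in the receptor levels of the unnamed cells was not tested. Flt3 summed over the 4 libraries was 222 (193 to 253) CPM in Xcr1, 191 (177 to 204) CPM in mature, 178 (137 to 228) CPM in plasmacytoid, 134 (122 to 147) CPM in Cd209a and 35.6 (25.9 to 47.8) CPM in the unnamed cells. All 4 named types had Flt3, and the intervals of the Xcr1, mature and plasmacytoid types overlapped.

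Csf1r took nearly the reverse order. It was at 342 (310.4 to 377) CPM in the unnamed cells, 199 (184 to 215) CPM in Cd209a, 36.4 (30.8 to 42.7) CPM in mature and 9.12 (4.17 to 17.3) CPM in Xcr1 cells, with 0 UMIs in the 33 plasmacytoid cells. Mature cells were below Cd209a cells in every library, by a log2 ratio of -3.10 to -1.36. Csf2rb was at 963 CPM in the unnamed, 576 CPM in mature, 368 CPM in plasmacytoid, 360.3 CPM in Cd209a and 173 CPM in Xcr1 cells. Csf2rb2 was highest in plasmacytoid cells, at 393 (331 to 464) CPM, and lowest in Xcr1 cells, at 24.3 (15.6 to 36.2) CPM.

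**Figure D3:**
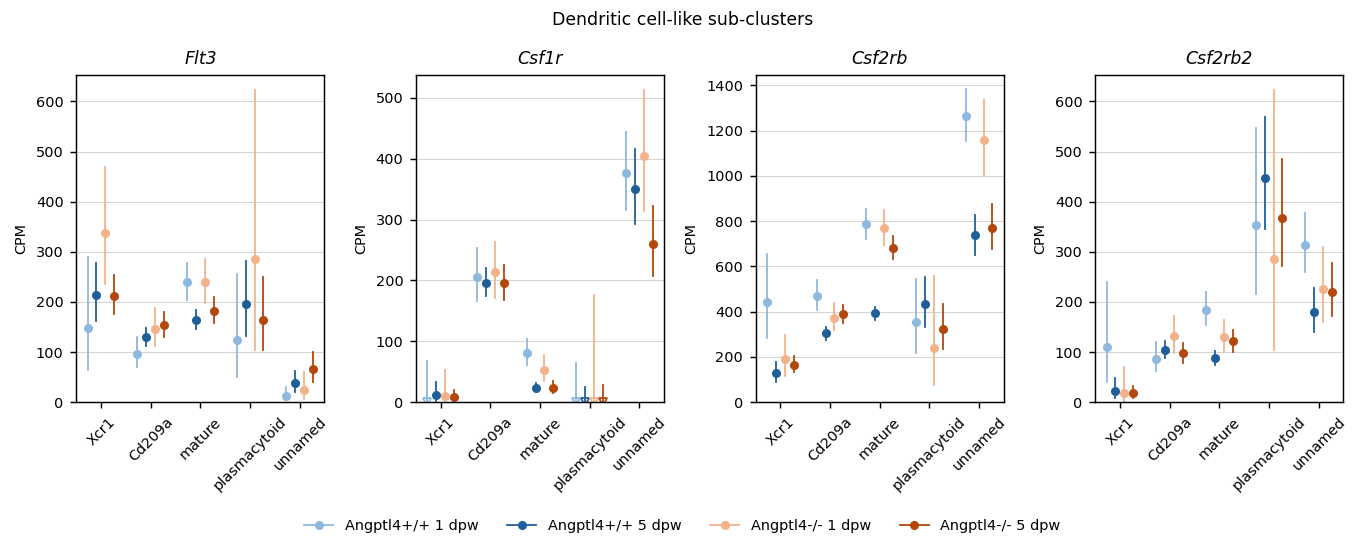
Levels (CPM) of Flt3, Csf1r, Csf2rb and Csf2rb2 in the types of dendritic cell-like cells, 1 point per library with exact Poisson 95% intervals, open triangles at the foot of the axis marking 0 UMIs. Flt3 is lowest and Csf1r highest in the unnamed cells (35.6 and 342 CPM over all libraries), while Csf1r is at 0 UMIs in plasmacytoid cells.

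Genes with the most similar pattern were ranked by Pearson's r of log2(CPM + 10) over 44 points, 11 clusters in each of 4 libraries, among 10361 genes. The points share libraries and cell types, so r is a description. For Csf3r the nearest were Trpm2, Gm28192, Cxcr2, Tirap and Sorl1 (r = 0.97 to 0.95), of which Cxcr2 is the receptor of neutrophil-attracting chemokines. For Csf1r they were Nupr1, Psap, Blvrb, Ltbr and Lrp1 (r = 0.95 to 0.94). For Csf2ra they were Lyn, Trps1, Pirb, Rab31 and Bach1 (r = 0.92 to 0.86), Lyn being a Src-family kinase of myeloid cells, and for Csf2rb Dennd5a, Gcnt2, Gpr35, Cux1 and Tet2 (r = 0.89 to 0.83). The nearest to Csf2rb2 were Basp1, Clip2, Nfkbie, Sgpl1 and Map2k1 (r = 0.82 to 0.76), and to Flt3 Tspan33, Kmo, Rtn1, Zfp366 and Kctd14 (r = 0.97 to 0.96). Between members, r was 0.75 for Csf2rb and Csf2rb2, 0.67 for Csf2ra and Csf2rb, -0.48 for Csf1r and Csf3r and -0.62 for Csf3r and Flt3.

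The first comparison the design implies is of Angptl4-/- with Angptl4+/+ wounds, at each time. Csf2rb was the only member to stand higher in Angptl4-/- wounds by a log2 ratio of 0.3 or more in dendritic cell-like, neutrophil-like and macrophage-like cells at once, and this was at 5 dpw. The 0.3 size was not set beforehand, and Csf2rb did not reach the planned size of 0.5 in any of these classes. Its log2 ratio in neutrophil-like cells was 0.38 (0.33 to 0.42), in macrophage-like cells 0.34 (0.27 to 0.42), in dendritic cell-like cells 0.36 (0.25 to 0.46) and, at 1.19 (0.79 to 1.60), largest for NK cell/T cell-like cells. Monocyte-like cells did not share it, at -0.05 (-0.28 to 0.18), nor did the few mast cells or basophils, at -0.27 (-0.74 to 0.19), and B cell-like cells had 5 UMIs in the Angptl4+/+ library and 0 in the Angptl4-/- library. The interval was above 0 in 6 of 6 neutrophil-like clusters, with ratios of 0.24 to 0.65, and in 2 of 2 macrophage-like clusters, with ratios of 0.34 and 0.40. Without integration of the libraries the ratio in macrophage-like cells was 0.26, and with each cell classed by its own markers it was 0.29, both under the 0.3 size.

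Among 5144 genes with enough UMIs in dendritic cell-like, neutrophil-like and macrophage-like cells, 29 (0.564%), Csf2rb among them, were higher in Angptl4-/- wounds by a log2 ratio of at least 0.3 in all 3 classes at 5 dpw. This share depends on the 0.3 size, which lies just under the Csf2rb ratios, and is a description only. At 1 dpw 17 of 3527 genes (0.482%) were, none of them a member. The Csf2rb ratios at 1 dpw were 0.18 (0.14 to 0.22) in neutrophil-like, -0.17 (-0.25 to -0.10) in macrophage-like and -0.32 (-0.45 to -0.19) in dendritic cell-like cells, so its sign differed between classes. In mature dendritic cell-like cells the ratio was -0.03 (-0.22 to 0.16) at 1 dpw and 0.79 (0.64 to 0.94) at 5 dpw, and in Cd209a cells -0.33 (-0.64 to -0.02) and 0.35 (0.15 to 0.55). With 1 library for each condition, a difference between genotypes and one between libraries cannot be told apart, and the ratio in NK cell/T cell-like cells rests on 74 and 170 UMIs.

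The other β subunit did not follow at the same size. Csf2rb2 had log2 ratios at 1 and 5 dpw of 0.23 (0.13 to 0.34) and 0.19 (0.06 to 0.32) in neutrophil-like cells, -0.24 (-0.37 to -0.10) and 0.14 (-0.03 to 0.30) in macrophage-like cells, and -0.49 (-0.77 to -0.21) and 0.07 (-0.14 to 0.27) in dendritic cell-like cells. For Csf2ra, the ratios were 0.01 (-0.09 to 0.12) and 0.21 (0.14 to 0.29) in macrophage-like cells and -0.04 (-0.10 to 0.02) and 0.11 (0.03 to 0.19) in neutrophil-like cells. Both subunits of the GM-CSF receptor were thus higher in macrophage-like cells of the Angptl4-/- library at 5 dpw, although with cells thinned to 1000 UMIs the Csf2ra ratio was 0.04.

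Csf1r differed little by genotype in macrophage-like cells, at 0.00 (-0.07 to 0.07) at 1 dpw and -0.16 (-0.22 to -0.11) at 5 dpw, the latter with the interval below 0 in 2 of 2 clusters. In UMIs per cell, however, Csf1r at 5 dpw was 1.26 times as high in Angptl4-/- as in Angptl4+/+ macrophage-like cells, which had means of 11916 and 8412 UMIs of all genes per cell. In monocyte-like cells its ratio changed sign, from 0.18 (0.05 to 0.31) to -0.25 (-0.41 to -0.10). Csf3r was within 0.06 of equal in neutrophil-like cells at both times, with ratios of 0.06 (0.02 to 0.10) and -0.03 (-0.07 to 0.01). Over the 6 clusters its ratios ran from -0.05 to 0.39 at 1 dpw, with the interval above 0 in 4. At 5 dpw they ran from -0.18 to 0.31, with the interval above 0 in 1 and below 0 in 2. Flt3 in dendritic cell-like cells was higher in Angptl4-/- wounds at both times, by 0.40 (0.13 to 0.68) and 0.19 (0.02 to 0.37), but with cells thinned to 1000 UMIs the ratio at 1 dpw was -0.12. Within the mature type the Flt3 ratios were 0.00 (-0.35 to 0.35) and 0.15 (-0.12 to 0.42), and within the Cd209a type 0.60 (0.01 to 1.21) and 0.25 (-0.07 to 0.56).

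No member with at least 100 UMIs over the compared libraries reached a log2 ratio of 0.5 by genotype in neutrophil-like cells (0 of 5 at either time) or macrophage-like cells (0 of 5 at either time). Over all genes tested, 7.04% at 1 dpw and 8.64% at 5 dpw passed that size in neutrophil-like cells, and 5.99% and 7.97% in macrophage-like cells. For dendritic cell-like cells the counts were 0 of 5 members at 1 dpw and 1 of 6 at 5 dpw, against 10.6% and 9.87% of all genes. That member was Csf3r, lower in Angptl4-/- wounds by -1.18 (-1.77 to -0.62) on 35 against 109 UMIs. Of the 109 UMIs, 19 came from 14 Xcr1 and 12 from 14 plasmacytoid cells, while the neutrophil markers summed to 815 to 4475 CPM in dendritic cell-like cells over the libraries. Their part in this difference was not tested.

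**Figure D4:**
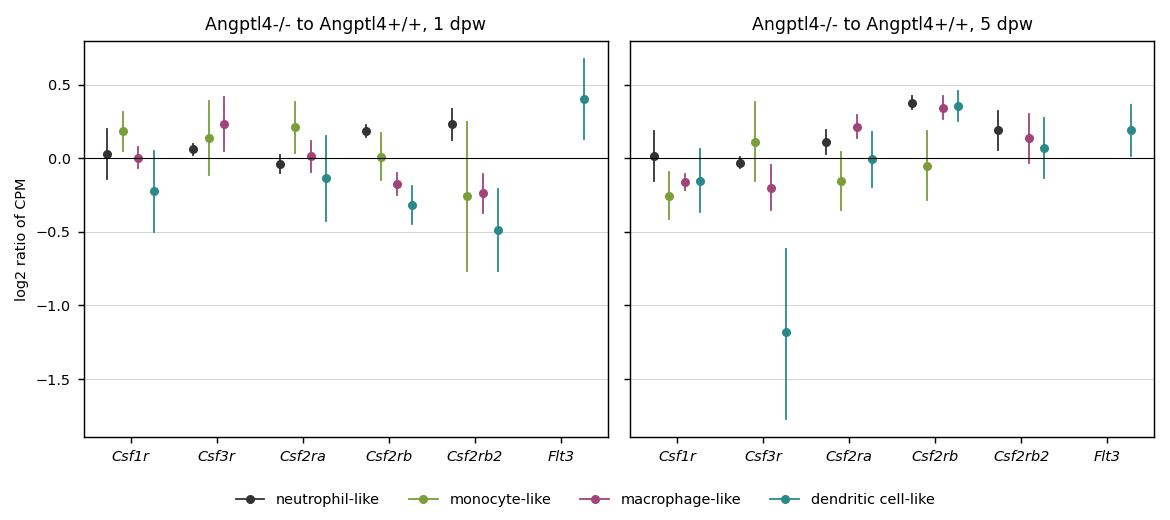
Log2 ratio of CPM, Angptl4-/- to Angptl4+/+, for each receptor gene and class at 1 and 5 dpw, with exact conditional binomial 95% intervals. At 5 dpw Csf2rb lies above 0 in dendritic cell-like (0.36), neutrophil-like (0.38) and macrophage-like (0.34) cells, while Csf3r in neutrophil-like cells lies at -0.03.

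The second comparison is of 5 dpw with 1 dpw in each genotype, and in neutrophil-like cells it has to be read against a shift of the whole table. The 20 most abundant genes held 40.9 and 42.5% of neutrophil-like UMIs in the 1 dpw libraries of Angptl4+/+ and Angptl4-/- wounds and 30.6 and 30.9% at 5 dpw, S100a9 alone going from 9.84 to 5.71% and from 10.4 to 5.33%. The median log2 ratio of all genes was 0.65 in Angptl4+/+ and 0.68 in Angptl4-/- wounds. It was 0.15 and 0.07 in macrophage-like cells and -0.12 and -0.11 in dendritic cell-like cells. Day ratios of the receptor genes in neutrophil-like cells are therefore given as measured and less this median. Those of signalling and feedback genes further below are as measured only.

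Summed over all neutrophil-like cells, Csf3r and Csf1r stood above the shift and Csf2ra and Csf2rb2 below it, in both genotypes. Of all genes, 70.3% in Angptl4+/+ and 63.5% in Angptl4-/- wounds had a lower day ratio than Csf3r. For Csf1r the shares were 63.9 and 61.6%, for Csf2rb2 27.7 and 24.2% and for Csf2ra 13.7 and 17.7%. Many other genes thus lay as far from the median as Csf3r, Csf1r and Csf2rb2. Csf3r was higher at 5 dpw by a log2 ratio of 1.01 (0.98 to 1.05) in Angptl4+/+ wounds and 0.92 (0.89 to 0.96) in Angptl4-/- wounds, which less the median was 0.36 and 0.24. In UMIs per cell it was 1.28 and 1.34 times the 1 dpw value. Before the median was taken off, the Csf3r interval was above 0 in all 6 neutrophil-like clusters of both genotypes. The same held for Csf2rb, which went with the shift, so this count cannot show that a receptor stood above it. Cluster ratios of Csf3r spanned 0.64 to 1.34 (Angptl4+/+) and 0.58 to 1.12 (Angptl4-/-). The lowest ratio of each genotype lay under the class median, 0.65 and 0.68. Whether Csf3r stood above the shift within each cluster was not tested. Csf1r had ratios of 0.90 (0.72 to 1.07) and 0.88 (0.72 to 1.05), which were 0.25 and 0.20 less the median. Over the clusters its ratios ran from 0.19 to 1.30 in Angptl4+/+ wounds and from -0.59 to 1.41 in Angptl4-/- wounds. The interval was above 0 in 4 of 6 clusters of each genotype and below 0 in 1 of 6 in Angptl4-/- wounds. The ratio of the class was thus not shared by all clusters.

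Csf2ra had nearly the same CPM on both days while most genes were higher in CPM. Its ratios were -0.09 (-0.17 to -0.01) and 0.06 (-0.01 to 0.12), or -0.74 and -0.62 less the median. At 5 dpw it had 0.594 and 0.735 times as many UMIs per cell. The mean UMIs of all genes per neutrophil-like cell went from 5062 to 3203 in Angptl4+/+ wounds and from 4953 to 3502 in Angptl4-/- wounds. Csf2rb2 had 0.26 (0.13 to 0.39) and 0.22 (0.11 to 0.33), or -0.39 and -0.46 less the median. Its ratios ran over the 6 clusters from -0.44 to 0.78 in Angptl4+/+ wounds and from -0.54 to 0.68 in Angptl4-/- wounds, highest in the Csf1 cluster of both genotypes, so the low ratio of the class was not shared by all of them. Csf2rb went with the shift, at 0.62 (0.57 to 0.66) and 0.81 (0.77 to 0.85), or -0.04 and 0.13 less the median. The subunits of the GM-CSF receptor thus had unlike day ratios within the same cells. A log2 ratio of 0.5 was passed by 3 of 5 members, all higher, in each genotype, against 64.4% and 65.8% of all genes, shares close to the members' own.

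In macrophage-like cells the CPM of the β subunits were lower at 5 dpw and those of Csf1r and Csf2ra higher. Csf2rb2 had log2 ratios of -1.33 (-1.47 to -1.20) in Angptl4+/+ wounds and -0.96 (-1.13 to -0.79) in Angptl4-/- wounds, and Csf2rb -0.85 (-0.92 to -0.78) and -0.34 (-0.42 to -0.25). Both were lower, with the interval below 0, in both macrophage-like clusters of both genotypes, but with cells thinned to 1000 UMIs the ratio of Csf2rb in Angptl4-/- wounds was 0.06. In UMIs per cell, Csf2rb was 0.599 times its 1 dpw value in Angptl4+/+ wounds but 1.37 times in Angptl4-/- wounds, and Csf2rb2 0.429 and 0.891 times. The mean UMIs of all genes per macrophage-like cell was 7782 at 1 dpw and 8412 at 5 dpw for Angptl4+/+ wounds, against 6870 and 11916 for Angptl4-/- wounds. Csf2ra had 0.26 (0.18 to 0.34) and 0.46 (0.36 to 0.56), and Csf1r 0.34 (0.29 to 0.40) and 0.18 (0.11 to 0.25). In Angptl4-/- wounds the Csf1r ratio was 0.35 (0.25 to 0.45) in the Ccl12 cluster and -0.02 (-0.12 to 0.08) in the Arg1 cluster, while the cells of the Arg1 and Ccl12 clusters went from 599 and 244 to 351 and 296. The 0.5 size was passed by 2 of 5 members, both lower, in Angptl4+/+ wounds and by 1 of 5, lower, in Angptl4-/- wounds, against 35.4% and 30.9% of all genes.

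Csf3r in macrophage-like cells had ratios of 0.34 (0.19 to 0.49) and -0.09 (-0.27 to 0.09). The summed neutrophil markers of that class lay between 1730.1 and 11181 CPM, a range over the 4 libraries that takes both days together. As a share of the neutrophil-like level, the marker median of macrophage-like cells was smaller at 5 dpw. For Angptl4+/+ wounds it was 1.80%, against 6.04% at 1 dpw. The Angptl4-/- libraries had 1.83% at 5 dpw, against 4.95% at 1 dpw. Monocyte-like cells had Csf2rb lower at 5 dpw as well, by -0.45 (-0.65 to -0.26) and -0.52 (-0.72 to -0.32), and Csf3r higher, by 0.50 (0.24 to 0.76) and 0.47 (0.22 to 0.73). Their Csf1r ratio was 0.36 (0.22 to 0.51) in Angptl4+/+ wounds and -0.07 (-0.22 to 0.08) in Angptl4-/- wounds, and that of Csf2ra 0.45 (0.27 to 0.63) and 0.09 (-0.10 to 0.27).

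In dendritic cell-like cells Csf2rb and Csf1r were lower at 5 dpw and Flt3 differed little. Csf2rb had ratios of -1.06 (-1.16 to -0.95) and -0.39 (-0.51 to -0.26), Csf1r -0.66 (-0.88 to -0.45) and -0.59 (-0.86 to -0.32), and Flt3 0.04 (-0.19 to 0.26) and -0.18 (-0.41 to 0.06). With each cell classed by its own markers, the Csf2rb ratio in Angptl4-/- wounds was 0.10. The mix of types differed between the days, the unnamed cells making up 23 of 111 and 13 of 89 cells at 1 dpw and 29 of 315 and 24 of 209 at 5 dpw. Within mature cells Csf2rb had -1.0 (-1.16 to -0.84) and -0.17 (-0.36 to 0.01) and Csf1r -1.79 (-2.39 to -1.20) and -1.22 (-2.09 to -0.36). Within Cd209a cells Csf1r had -0.07 (-0.42 to 0.29) and -0.13 (-0.50 to 0.25), so the lower Csf1r of the whole class was not seen there. The 0.5 size was passed by 4 of 6 members in Angptl4+/+ wounds, Csf3r higher and Csf1r, Csf2rb and Csf2rb2 lower, and by 1 of 5, Csf1r, in Angptl4-/- wounds, against 27.3% and 20.8% of all genes. The interval of Csf3r there, -0.09 to 1.14, included 0.

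**Figure D5:**
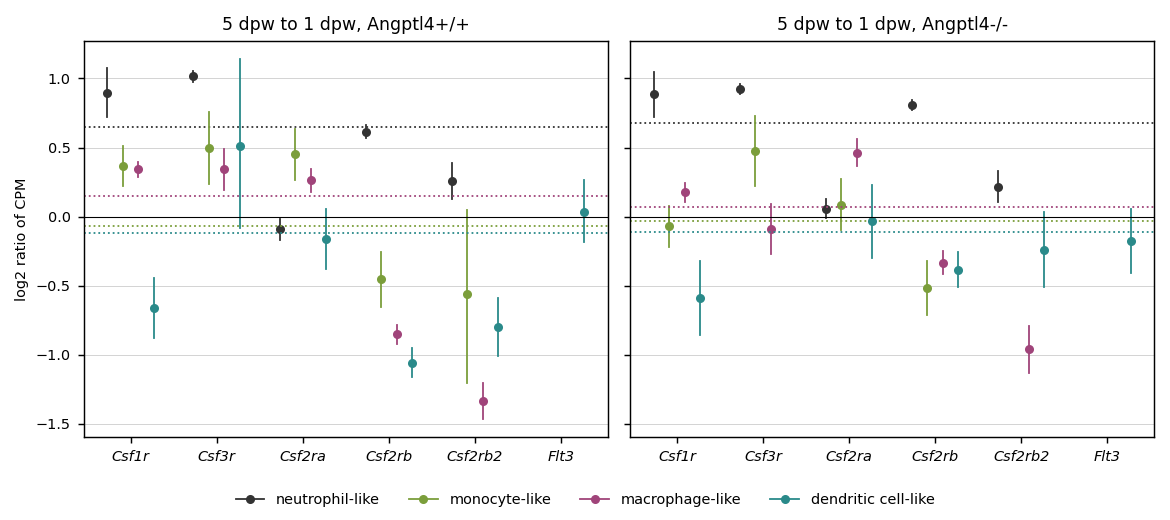
Log2 ratio of CPM, 5 dpw to 1 dpw, for each receptor gene and class in Angptl4+/+ and Angptl4-/- wounds, with exact conditional binomial 95% intervals and the median of all genes of the class drawn as a line. In neutrophil-like cells Csf3r (1.01 and 0.92) lies above that median and Csf2ra (-0.09 and 0.06) below it, and in macrophage-like cells Csf2rb2 (-1.33 and -0.96) is lowest.

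Of the 8 ligands listed for these receptors and their relatives, Csf1, which encodes M-CSF, had the most UMIs. Neutrophil-like cells had 555 and 826 CPM in Angptl4+/+ wounds at 1 and 5 dpw, with 519 and 755 CPM in Angptl4-/- wounds, and no other large class passed 110.0 CPM. The neutrophil-like cluster led by Csf1 had 1404 CPM over all libraries and the Pglyrp1 cluster, highest in Csf3r, 116 CPM. The 10 mast cells or basophils of Angptl4+/+ wounds had 1414 (1154 to 1715) CPM and the 4 of Angptl4-/- wounds 688 (414 to 1074) CPM. Csf1 thus lay mainly in neutrophil-like cells and its receptor mainly in macrophage-like and monocyte-like cells.

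Csf3, which encodes G-CSF, had 67.2, 45.7, 105 and 39.7 CPM in neutrophil-like cells and 368, 410.0, 824 and 206 CPM in the cluster it led, in the order Angptl4+/+ at 1 and 5 dpw and Angptl4-/- at 1 and 5 dpw. That cluster was the lowest in Csf3r. Flt3l, which encodes Flt3 ligand, was at 31.2 to 37.8 CPM in NK cell/T cell-like cells and 4.31 to 11.5 CPM in dendritic cell-like cells. Csf2, which encodes GM-CSF, had 6, 10, 0 and 0 UMIs over all cells of the libraries, and 9 of the 10 in Angptl4+/+ wounds at 5 dpw were in NK cell/T cell-like cells. Il34, Il5 and Kitl had at most 5, 1 and 52 UMIs in a library, and Il3 had 0 in all 4. The sort kept only CD45+ cells, so ligands made by skin cells were not measured.

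The listed partner receptors were Il3ra, Il5ra and Kit. Il3ra, the IL-3-binding subunit, was at 25.3 to 32.6 CPM in macrophage-like and 22.3 to 34.2 CPM in monocyte-like cells and at 1.14 to 2.18 CPM in neutrophil-like cells, where both β subunits were present. Il5ra had at most 6 UMIs in a library. Kit was at 42.5 and 55.0 CPM in dendritic cell-like cells of Angptl4+/+ wounds at 1 and 5 dpw, and at 41.1 and 98.6 CPM in Angptl4-/- wounds. Its log2 ratio passed 0.5, upward, by genotype at 5 dpw and by day in Angptl4-/- wounds, at 1.26 in the latter. Over all genes of that class, 9.87% and 20.8% passed that size in either direction.

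Of 20 signalling genes listed for these receptors, 19 had at least 100 UMIs in the day comparisons of neutrophil-like cells. Of these, 8 were higher by a log2 ratio of 0.5 or more in Angptl4+/+ wounds (median of the list 0.45), and 10 were in Angptl4-/- wounds (median 0.52). Over all genes tested, 3887 of 6610 and 4060 of 6671 were higher by that size, both larger shares than those of the list. The medians of the list were below those of all genes, 0.65 and 0.68. Sos1, an adaptor that activates Ras, had ratios of 1.17 (0.79 to 1.54) and 1.39 (1.02 to 1.76). Pik3cd, a PI3-kinase subunit of leukocytes, had 1.14 (0.95 to 1.33) and 0.84 (0.64 to 1.03). Jak2, the kinase bound by the β subunit, had 0.81 (0.69 to 0.93) and 1.12 (1.01 to 1.22).

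Socs3, which binds the G-CSF receptor and stops its signal, was higher at 5 dpw in neutrophil-like cells by a log2 ratio of 1.32 (1.27 to 1.36) in Angptl4+/+ wounds and 1.59 (1.55 to 1.64) in Angptl4-/- wounds. Its level went from 325 to 809.8 CPM and from 326 to 985 CPM. Both ratios exceeded the median of all genes by more than those of Csf3r did. Cish, a STAT5 target, had 32.0, 22.5, 33.9 and 42.5 CPM in neutrophil-like cells, and its ratio of Angptl4-/- to Angptl4+/+ wounds at 5 dpw was 0.92 (0.68 to 1.16), the only listed signalling or feedback gene with at least 100 UMIs past 0.5 by genotype in that class. Its day ratio as measured was -0.51 (-0.75 to -0.28) in Angptl4+/+ wounds and 0.33 (0.16 to 0.50) in Angptl4-/- wounds. Both lay below the medians of all genes, 0.65 and 0.68.

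In macrophage-like cells Socs2 was higher at 5 dpw, by 0.86 (0.42 to 1.32) and 1.67 (1.04 to 2.34), and Socs1 lower, by -1.06 (-1.39 to -0.74) and -0.56 (-0.92 to -0.20). Jak2 was lower by -0.57 (-0.71 to -0.42) and -0.53 (-0.70 to -0.36), in the same class and direction as Csf2rb. Stat5a had 0.59 (0.25 to 0.93) and 0.49 (0.11 to 0.89), Cblb, a ubiquitin ligase, -0.52 (-0.81 to -0.23) and -0.07 (-0.50 to 0.37), and the adaptor Gab2 -0.29 (-0.45 to -0.14) and -0.54 (-0.77 to -0.32). Of the 20 signalling genes, 1 was higher and 2 lower by 0.5 or more in Angptl4+/+ wounds and 0 and 2 in Angptl4-/- wounds, against 35.4% and 30.9% of all genes past that size in either direction. By genotype, Cblb had -0.66 (-1.05 to -0.28) at 1 dpw and Socs1 0.62 (0.26 to 0.98) at 5 dpw.

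In dendritic cell-like cells the signalling genes that passed 0.5 were lower at 5 dpw, 5 of 19 in Angptl4+/+ and 3 of 19 in Angptl4-/- wounds. Over all genes of that class, 27.3% and 20.8% passed it, 1132 of 1598 and 745 of 1042 of them lower, so the share of the list is close to that of all genes. Adam17, a protease that sheds Csf1r from the cell surface, had -0.77 (-1.07 to -0.47) and -1.01 (-1.35 to -0.67), Stat3 -0.78 (-0.92 to -0.64) and -0.50 (-0.66 to -0.34), and Gab2 -0.71 (-1.14 to -0.28) and -0.87 (-1.41 to -0.31). Cish had -1.57 (-2.02 to -1.12) in Angptl4+/+ wounds and -0.09 (-0.67 to 0.52) in Angptl4-/- wounds, and Socs1 -0.49 (-0.91 to -0.06) and -1.55 (-2.09 to -1.01). By genotype, Cish had -0.95 (-1.55 to -0.38) at 1 dpw and 0.53 (0.07 to 0.99) at 5 dpw, on 36 against 93 and 84 against 80 UMIs. At 5 dpw, Ptpn11, a phosphatase that many of these receptors recruit, had 0.51 (0.16 to 0.86), Socs1 -0.81 (-1.29 to -0.35) and Socs2 -0.76 (-0.89 to -0.63). Socs2 was among the leading genes of 1 sub-cluster of mature cells. That sub-cluster held 77 of the 315 dendritic cell-like cells in Angptl4+/+ and 28 of the 209 in Angptl4-/- wounds at 5 dpw. The part of this mix in the Socs2 ratio was not tested.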

How the data were processed

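CD45+ cells of 4 libraries were measured. Per the labels, the authors used Cell Ranger 3.1.0, Seurat 3.0 and mm10, and deposited UMI counts for each barcode, raw and not normalized. Cell Ranger makes them by aligning reads, keeping those that map to 1 gene and collapsing UMIs.

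Barcodes with at least 200 genes and at most 10% mitochondrial UMIs were kept, 19827 of 20069. Libraries were joined by anchors in Seurat 5.3.0 (R 4.3.3) on 2000 variable genes and 30 dimensions, with the 41 receptor, ligand and signalling genes left out of the variable genes, and clustered by the Louvain method at resolution 0.5. A cluster took the name of its best marker list. Names were rebuilt, so they can differ from the study's. Mast cells or basophils were cells with at least 5 UMIs of at least 2 of their markers, a threshold set after seeing the data. Doublet calls (scanpy 1.11.5, 789 cells) were kept. Counts were summed per class and library as CPM, with exact Poisson intervals for levels, exact conditional binomial intervals for ratios and Clopper-Pearson intervals for shares (scipy 1.17.1), at 95%. These cover counting error only. Ratios used for counts of genes needed 100 UMIs over both libraries. Shares were repeated with each cell thinned to 1000 UMIs, leaving out 86 to 157 shallower cells per library. With 1 library per condition no test between conditions was run. Where a sentence says that values differ, the values or their ratio stand in its paragraph, in many places without the counting interval.

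The members and gene lists were chosen with earlier results of these data known. The 6 members were named in every class. Ligands were named by class, and of the signalling and feedback genes up to 3 of the largest ratios in each direction per comparison, with at least 100 UMIs and a log2 ratio of at least 0.5. 1 signalling gene is not reported here. Steps were checked on simulated data. Sequences came from the mm10 reference and RefSeq.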

Additional observations from a re-analysis of the deposited data

How the results depend on the processing

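Over 36 log2 ratios (9 member and class pairs in 4 comparisons) and 10 alternative settings, 309 of 360 values stayed inside the counting interval of the reported ratio, 48 moved outside it and 3 reversed, with a median shift of 0.02. Only a ratio whose interval left out 0 could count as reversed. Other changes of sign are among the values that stayed or moved. Clustering at resolution 1.0, leaving out doublet calls and letting the receptor genes into the clustering moved none of the 36 outside its interval. Classing each cell by its own markers moved 17 of 24 levels and 19 of 24 shares of cells outside their intervals, and leaving mitochondrial and ribosomal protein genes out of the total moved 17 of 24 levels. Without integration, Csf2rb at 5 dpw was 0.26 in macrophage-like and 0.47 in dendritic cell-like cells by genotype and -0.43 by day in Angptl4-/- macrophage-like cells. Values here are log2 ratios of CPM, and the cause of a shift was not tested. With each cell thinned to 1000 UMIs, which leaves fewer UMIs, Csf2rb in macrophage-like cells reversed to 0.059 by day in Angptl4-/- wounds and Flt3 in dendritic cell-like cells to -0.12 by genotype at 1 dpw. Flt3 was then 0.48 by genotype at 5 dpw and -0.36 and 0.25 by day in Angptl4+/+ and Angptl4-/- wounds. By day, in the same order, Csf3r in neutrophil-like cells was 1.10 and 1.00 and Csf1r in macrophage-like cells 0.42 and 0.37, Csf2ra there was 0.38 in Angptl4+/+ wounds, and in Angptl4-/- wounds Csf2rb2 there was -0.76 and Csf2rb in neutrophil-like cells 0.87. By genotype, Csf1r in macrophage-like cells was -0.11 and Csf2rb in neutrophil-like cells 0.11 at 1 dpw, and in macrophage-like cells at 5 dpw Csf2ra was 0.037 and Csf2rb2 0.31. With each cell classed by its own markers, Csf2rb in dendritic cell-like cells reversed to 0.10 by day in Angptl4-/- wounds, and the day ratios in Angptl4+/+ and Angptl4-/- wounds were 1.08 and 0.98 for Csf3r and 0.72 and 0.86 for Csf2rb in neutrophil-like cells and 0.27 and 0.090 for Csf1r in macrophage-like cells. With every cell weighing the same, they were 1.09 and 0.99 for Csf3r, 0.50 and 0.37 for Csf1r, -1.19 in Angptl4+/+ wounds for Csf2rb2 and 0.57 in Angptl4-/- wounds for Csf2ra in macrophage-like cells, and Csf2rb in neutrophil-like cells was 0.85 by day in Angptl4-/- wounds and 0.14 by genotype at 1 dpw. Without mitochondrial and ribosomal protein genes, Csf1r in macrophage-like cells was 0.42 and 0.25 by day. A stricter filter (500 genes, 5% mitochondrial) gave 0.96 for Csf3r by day in Angptl4+/+ and 0.86 for Csf2rb in Angptl4-/- neutrophil-like cells, and no filter gave 0.85 for the latter. Less the median ratio of all genes, an alternative chosen after seeing the data, Csf2rb in neutrophil-like cells reversed to -0.035 by day in Angptl4+/+ wounds and was 0.13 in Angptl4-/- wounds, with 0.27 and 0.44 by genotype at 1 and 5 dpw. Csf3r was 0.36 and 0.24 by day and 0.15 and 0.038 by genotype, and in Angptl4+/+ macrophage-like cells Csf1r was 0.20, Csf2ra 0.12 and Csf2rb2 -1.48 by day. No paired analysis was possible because the groups compared share fewer than 2 replicate numbers. Few UMIs limited Flt3 and Csf2, and few cells limited the dendritic cell types, where a library held as few as 2 cells of a type.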
